A study of Mus musculus with 9 samples.

Results

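The genes of DNA replication licensing examined here are Mcm2, Mcm3, Mcm4, Mcm5, Mcm6, Mcm7, Mcm10, Cdt1, Gmnn and Cdc6. They were chosen by name, and each was located in the deposited table by its position in the GRCm38 mouse genome, since the gene names printed in that table belong to other loci. A locus was found for 10 of the 10 genes, among 54913 loci with a value in every library, and where a gene had several loci the one with the highest mean was taken. The locus of Mcm6 also covers its neighbour Dars, which lies on the same strand, so the value given for Mcm6 is that of both genes.

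RNA-seq was performed on 9 libraries, 3 each of SSC, SSCiPSC and fiPSC. All animals and lines carried the alleles Gt(ROSA)26Sortm1(rtTA*M2)Jae and Col1a1tm3(tetO-Pou5f1,-Sox2,-Klf4,-Myc)Jae, from which doxycycline induces the reprogramming factors. SSC are uncultured cells (passage 0) of testes of pups at postnatal day 6, enriched by magnetic sorting for Gfra1, a receptor on their surface. SSCiPSC and fiPSC are induced pluripotent stem cells obtained with doxycycline from such SSC and from male fetal fibroblasts, grown as clonal lines from single colonies in medium with LIF and sorted for SSEA1. The labels give passages 10 to 11 and a medium with doxycycline for the iPSC, whereas the methods of the study give later passages and doxycycline withdrawn before them. SSC were thus taken from a tissue and iPSC from culture, so that reprogramming and culture cannot be told apart in any comparison with SSC. Neither the labels nor the methods say which replicates came from separate animals or lines, and the p-values measure the spread between these libraries.

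Before S phase, the origin recognition complex, CDC6 and CDT1 load the ring of MCM2 to MCM7 onto DNA, which licenses an origin to fire a single time per cell cycle. Geminin, the product of Gmnn, binds CDT1 from S phase to mitosis and so prevents loading again, and MCM10 helps to start the loaded helicase. Many of these genes are transcribed by E2F factors as cells enter S phase, and their RNA is known as a sign of proliferation, which is rapid in pluripotent cells of the mouse.

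Because E2F is the factor best known for these genes, the promoter windows were searched for a pair of E2F site variants. The set of windows used, from RefSeq (GRCm38.p6), ran from 250 bases before to 50 bases after the start of a gene. It covered Mcm2, Mcm3, Mcm5, Mcm6, Mcm7, Mcm10, Cdt1 and Cdc6, 8 of the 10 genes, and lacked Mcm4 and Gmnn. The letters searched on both strands were TTTGGCGC and TTTCGCGC, which can overlap when they face each other. At least 1 match stood in a window of 5 of the 8 genes, against 0.929% of the 27025 genes with a window (251 genes). The stretches of 30 bases that hold the matches are shown on the strand of each gene, with every matched base in capitals.

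Mcm5, chr8:75109347-75109376, plus strand, first matched base 153 bases upstream of the start: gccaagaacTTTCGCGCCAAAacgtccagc
Mcm6, chr1:128359795-128359824, minus strand, first matched base 110 bases upstream: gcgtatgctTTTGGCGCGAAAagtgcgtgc
Mcm6, chr1:128359734-128359763, minus strand, first matched base 47 bases upstream: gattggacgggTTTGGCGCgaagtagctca
Mcm3, chr1:20820263-20820292, minus strand, first matched base at position 39 of the transcript: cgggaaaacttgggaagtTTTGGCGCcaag
Mcm7, chr5:138171849-138171878, minus strand, first matched base at position 17: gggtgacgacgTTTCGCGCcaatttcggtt
Cdt1, chr8:122568035-122568064, plus strand, first matched base at position 33: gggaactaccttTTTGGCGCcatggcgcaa

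The runs of 12 capitals in Mcm5 and Mcm6 are the pair of variants facing each other and overlapping by 4 bases. Mcm5 and Mcm6 had their matches before the start, whereas those of Mcm3, Mcm7 and Cdt1 lay after the start, in the transcribed part. Mcm7 has a second window, for a start farther into the gene, which did not hold these letters. The windows of Mcm2, Mcm10 and Cdc6 did not hold these letters. A match describes the sequence and is not a measured binding site.

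The values are FPKM (fragments per kilobase of transcript and per 1000000 fragments), which are per length and so can be compared between genes. SSC libraries were shallow. Low FPKM values are whole multiples of what a fragment is worth, which gave estimated totals, in units of 1000000 fragments, of 1.77, 4.62 and 1.38 in SSC replicates 1, 2 and 3, against 13.3 to 17.6 in the iPSC libraries. A licensing gene rested on an estimated 15 to 1652 fragments in an SSC library and on 977 to 23969 in an iPSC library. The lowest of these, Gmnn in SSC, had 19, 77 and 15 fragments in replicates 1, 2 and 3, so that counting alone gives an error of 25.8% in replicate 3.

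The licensing genes were from 3.30 to 8.69 times as high in iPSC as in SSC. With limma and Benjamini-Hochberg adjusted p-values over all loci, 10 of 10 were higher in SSCiPSC than in SSC (adjusted p from 0.000105 to 0.00208), a call that 26.2% of the 36544 loci tested and 34.5% of those named for a single gene received. Likewise 10 of 10 were higher in fiPSC than in SSC (adjusted p from 5.69e-05 to 0.000267), against 28.0% of 38007 loci and 35.8% of the named ones. All SSC libraries lay below all iPSC libraries for each of the 10 genes, as for 31.1% of loci in SSCiPSC and 33.1% in fiPSC. The median log2 fold change of the 10 genes was 2.13 in SSCiPSC and 2.04 in fiPSC, against 0.11 and 0.17 over all loci tested. The 90th percentile of loci named for a single gene was 1.78 and 1.73, and 9 of the 10 genes were above it in each comparison. With quantile normalization the rises were smaller, with a median of 1.38 in SSCiPSC and 1.55 in fiPSC and the lowest gene at 1.16 and 1.11. Both comparisons use the same SSC libraries and are not independent of each other.

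**Figure D1:**
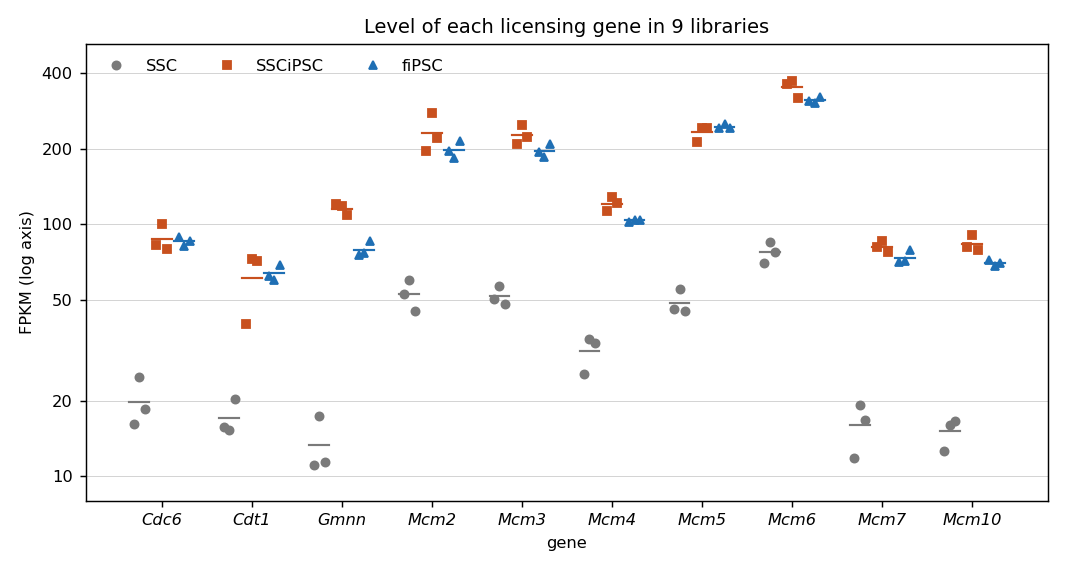
Level of the 10 licensing genes in each of the 9 libraries, in FPKM on a log axis, with points for libraries and short lines for group means. For each gene every SSC library lies below every iPSC library, and SSCiPSC and fiPSC lie close together.

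Loading factors came first in the order of action. Cdc6 (ENSMUSG00000017499, chr11:98907801-98923940, plus strand), the ATPase that joins the origin recognition complex, was at 16.1, 24.7 and 18.5 FPKM in SSC, at 82.6, 100.7 and 79.7 in SSCiPSC and at 89.1, 82.0 and 86.1 in fiPSC. The lowest iPSC library was thus 3.22 times the highest SSC library, and the iPSC groups overlapped. Its log2 fold change was 2.11 ± 0.19 (SE) in SSCiPSC (adjusted p = 0.000336, limma) and 2.08 ± 0.17 in fiPSC (adjusted p = 0.000217, limma). These and the fold changes below are on the log2(FPKM + 1) scale, with n = 3 libraries a group.

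Cdt1 (ENSMUSG00000006585, chr8:122568015-122573554, plus strand), which brings the MCM ring to the origin, was at 15.7, 15.2 and 20.3 FPKM in SSC, at 40.1, 72.6 and 71.9 in SSCiPSC and at 62.6, 60.0 and 69.0 in fiPSC. SSCiPSC replicate 1 stood apart, at 1.97 times the highest SSC library, and made Cdt1 the most variable of the 10 genes in SSCiPSC (SD 30.2% of the mean, against 7.23% in fiPSC). The log2 fold change was 1.75 ± 0.27 in SSCiPSC (adjusted p = 0.00208, limma), the smallest of the 10 there, and 1.85 ± 0.14 in fiPSC (adjusted p = 0.000197, limma).

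Gmnn (ENSMUSG00000006715, chr13:24751845-24761923, minus strand) had the largest rise of the 10 genes in both iPSC groups. It was at 11.1, 17.3 and 11.4 FPKM in SSC, at 120.0, 117.8 and 108.5 in SSCiPSC and at 75.7, 77.0 and 85.6 in fiPSC. The 3 groups did not overlap, with SSC lowest and SSCiPSC highest. Its mean was 8.69 times that of SSC in SSCiPSC (log2 fold change 3.05 ± 0.19, adjusted p = 0.000114, limma) and 5.98 times in fiPSC (2.52 ± 0.18, adjusted p = 0.000172, limma).

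Because geminin acts by binding CDT1, the RNA of both was also compared within each library, with 1 FPKM added to each gene. The log2 ratio of Gmnn to Cdt1 was -0.46, 0.17 and -0.78 in SSC, 1.56, 0.69 and 0.59 in SSCiPSC and 0.27, 0.35 and 0.31 in fiPSC. No group overlapped another. The means were -0.36 ± 0.49 (SD, n = 3) in SSC, 0.95 ± 0.53 in SSCiPSC and 0.31 ± 0.04 in fiPSC. The differences of the means were 1.30 for SSCiPSC against SSC, 0.67 for fiPSC against SSC and -0.64 for fiPSC against SSCiPSC, each with p = 0.1 in the exact two-sided permutation test, the smallest p that 3 against 3 libraries allow. The spread in SSCiPSC came from replicate 1, where Cdt1 was low, and without it the mean was 0.64 and the difference of fiPSC from SSCiPSC -0.33. In SSC the ratio rests on the few fragments of Gmnn given above.

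**Figure D2:**
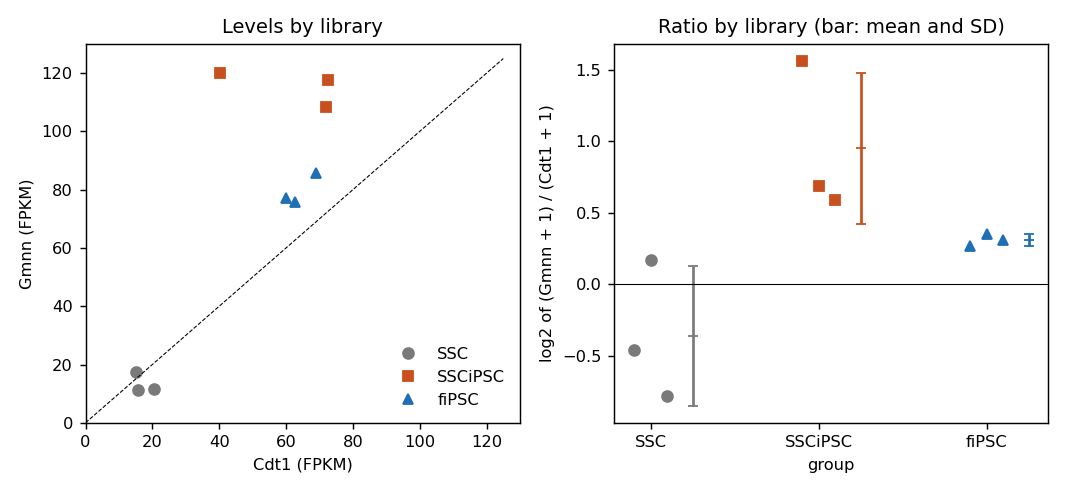
Left, Gmnn against Cdt1 in FPKM for each library, with a dashed line where both are equal. Right, the log2 ratio of Gmnn to Cdt1 (1 FPKM added to each) by library, with the mean and SD of each group beside the points. SSCiPSC libraries lie farthest above the line, fiPSC libraries just above it, and SSC libraries on both sides of it.

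All 6 genes of the helicase ring rose. Their summed level was 256.8, 312.0 and 266.8 FPKM in SSC, 1174, 1353 and 1202 in SSCiPSC and 1114.5, 1096 and 1168 in fiPSC, so the lowest iPSC library lay well above the highest SSC library and all fiPSC libraries lay just below all SSCiPSC libraries. Log2 fold changes of the 6 genes ran from 1.92 to 2.31 in SSCiPSC and from 1.70 to 2.30 in fiPSC. With quantile normalization they were smaller and less alike, from 1.16 to 1.38 in SSCiPSC and from 1.11 to 1.55 in fiPSC for Mcm2 to Mcm6, with Mcm7 at 1.91 and 1.85.

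Mcm2 (ENSMUSG00000002870, chr6:88883474-88898780, minus strand), whose product also binds histones, was at 52.7, 60.3 and 45.3 FPKM in SSC, at 196.4, 276.9 and 220.2 in SSCiPSC and at 196.2, 182.9 and 215.1 in fiPSC. Mcm3 (ENSMUSG00000041859, chr1:20802968-20820312, minus strand), whose product contacts the origin recognition complex and CDC6 during loading, was at 50.6, 56.9 and 48.2 FPKM in SSC, at 208.3, 248.5 and 223.1 in SSCiPSC and at 194.5, 184.3 and 208.5 in fiPSC. Mcm5 (ENSMUSG00000005410, chr8:75109569-75128439, plus strand), whose product forms with MCM2 the gate through which DNA enters the ring, was at 46.0, 55.4 and 45.2 FPKM in SSC, at 212.9, 242.1 and 241.6 in SSCiPSC and at 240.5, 249.4 and 240.4 in fiPSC. In SSC these 3 genes had overlapping levels. In fiPSC, by contrast, each Mcm5 value was above each value of Mcm2 and Mcm3, while in SSCiPSC the 3 genes overlapped. Mcm2 differed from SSC by a log2 fold change of 2.10 ± 0.18 in SSCiPSC and 1.89 ± 0.13 in fiPSC, Mcm3 by 2.11 ± 0.13 and 1.90 ± 0.10, and Mcm5 by 2.23 ± 0.13 and 2.30 ± 0.11.

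Mcm4, Mcm6 and Mcm7 encode the core of the ring, which has helicase activity by itself. Mcm4 (ENSMUSG00000022673, chr16:15623897-15637400, minus strand) was at 25.6, 35.1 and 33.8 FPKM in SSC, at 112.7, 128.7 and 121.2 in SSCiPSC and at 102.6, 104.3 and 104.3 in fiPSC. Mcm6 (ENSMUSG00000026355, chr1:128331590-128359664, minus strand), with the reads of Dars in its locus, was at 70.1, 85.2 and 77.5 FPKM in SSC, at 361.8, 370.9 and 318.2 in SSCiPSC and at 309.5, 303.4 and 320.6 in fiPSC. Mcm7 (ENSMUSG00000029730, chr5:138164583-138172422, minus strand) was the lowest of the 6 in every library, at 11.8, 19.3 and 16.8 FPKM in SSC, at 81.7, 85.6 and 77.6 in SSCiPSC and at 71.2, 71.5 and 78.9 in fiPSC. The levels of these 3 genes lay well apart and kept the order Mcm6, Mcm4 and Mcm7 in each library. Log2 fold changes in SSCiPSC and fiPSC were 1.92 ± 0.16 and 1.70 ± 0.14 for Mcm4, 2.16 ± 0.13 and 1.99 ± 0.10 for Mcm6, and 2.31 ± 0.19 and 2.17 ± 0.19 for Mcm7. The intervals of Mcm4 and Mcm7 also hold genes of the opposite strand, Prkdc for Mcm4 and Cops6 and Ap4m1 for Mcm7, and a locus of the opposite strand was present in the table for both. The locus of Gmnn holds Armh2, also of the opposite strand, and no locus of that strand overlapped Gmnn.

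**Figure D3:**
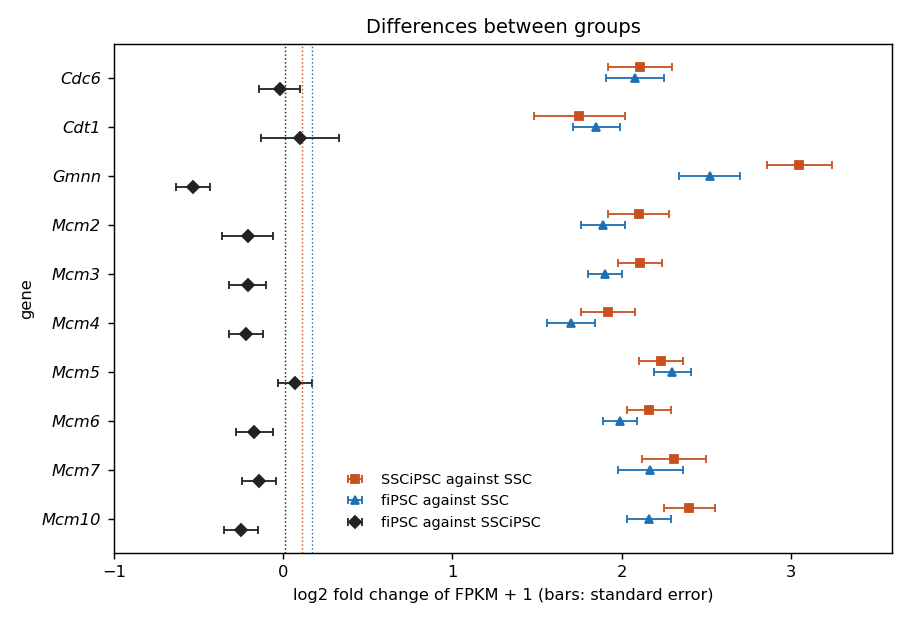
Log2 fold change of FPKM + 1 for the 10 licensing genes in the 3 comparisons, with bars for the standard error and dotted lines at the median of all loci tested in each comparison (0.11, 0.17 and 0.01). Both comparisons with SSC lie between 1.70 and 3.05, and fiPSC against SSCiPSC lies between -0.53 and 0.10.

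The loaded ring has 1 copy of each subunit, but RNA levels were uneven. Mcm6 with Dars made up 27.9% ± 1.01 of the summed FPKM in SSC, 28.2% ± 2.29 in SSCiPSC and 27.6% ± 0.164 in fiPSC (SD, n = 3), and Mcm7 5.69% ± 0.949, 6.58% ± 0.333 and 6.56% ± 0.187. For Mcm7 the SSC libraries (4.59%, 6.18% and 6.29%) lay only just below the lowest iPSC library (6.33%). These SSC shares rest on an estimated 58, 250 and 65 fragments of Mcm7, and the shares overlapped with Mcm6 left out of the sum. Shares of Mcm2 (18.9%, 18.5% and 17.6%) overlapped between the groups. Mcm3 made up 18.7%, 18.2% and 17.4%, with every fiPSC library below every SSC library. The share of Mcm5 was 17.9%, 17.7% and 16.9% in SSC, 18.1%, 17.9% and 20.1% in SSCiPSC and 21.6%, 22.8% and 20.6% in fiPSC, so that fiPSC lay above the other libraries. Mcm4 went from 11.3% ± 1.35 in SSC to 9.74% ± 0.307 in SSCiPSC and 9.22% ± 0.294 in fiPSC, with every fiPSC library below every SSC library. Shares were not tested. With Mcm6 left out of the sum, Mcm5 made up 24.3% ± 0.391 in SSC, 26.1% ± 1.35 in SSCiPSC and 29.9% ± 1.55 in fiPSC, the same order.

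**Figure D4:**
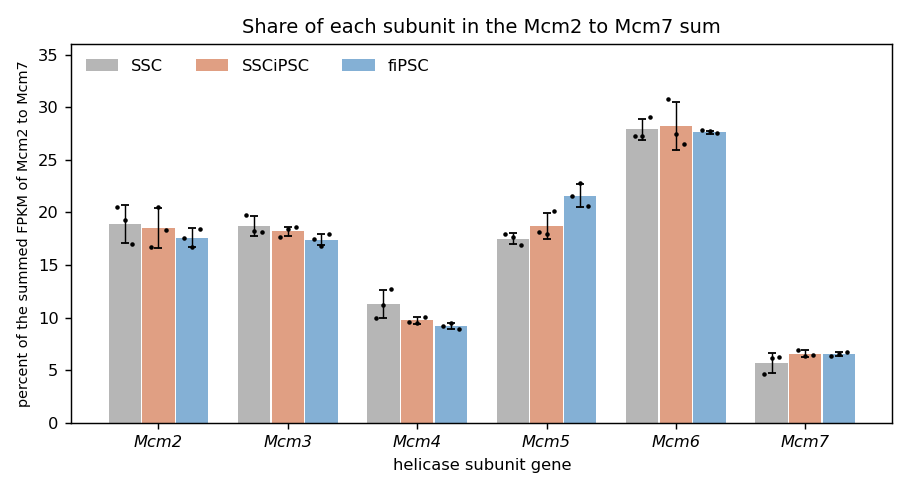
Share of each gene in the summed FPKM of Mcm2 to Mcm7, in percent, with bars for the mean, error bars for the SD and dots for the 3 libraries of each group. Mcm6 with Dars is highest and Mcm7 lowest in each group, and the share of Mcm5 is higher in the fiPSC libraries (20.6% to 22.8%) than in the others.

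Mcm10 (ENSMUSG00000026669, chr2:4989714-5012791, minus strand), which is not a part of the ring, was at 12.6, 16.1 and 16.7 FPKM in SSC, at 81.4, 90.8 and 79.1 in SSCiPSC and at 72.2, 68.7 and 70.1 in fiPSC. Both iPSC groups lay far above SSC, and all fiPSC libraries lay below all SSCiPSC libraries. The log2 fold change was 2.40 ± 0.15 in SSCiPSC (adjusted p = 0.000119, limma), the largest after Gmnn, and 2.16 ± 0.13 in fiPSC (adjusted p = 0.000107, limma).

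Between the iPSC of different origin the differences were small. None of the 10 genes passed the threshold in limma's test of fiPSC against SSCiPSC (0 of 10, against 0.0678% of 33948 loci), and 2 of 10, Gmnn and Mcm10, had an unadjusted p below 0.05, against 11.7% of loci. Gmnn was at 0.688 times its SSCiPSC mean in fiPSC (log2 fold change -0.53 ± 0.10, adjusted p = 0.191, limma) and Mcm10 at 0.840 times (-0.25 ± 0.10, adjusted p = 0.405, limma). For 3 of 10 genes (Gmnn, Mcm10 and Mcm4) the libraries of the groups did not overlap, against 18.6% of loci. The fold change was below 0 for 8 of the 10 genes, with a median of -0.19 against 0.01 over all loci and -0.05 over those named for a single gene, and above 0 for Mcm5 (0.07 ± 0.10) and Cdt1 (0.10 ± 0.23). The median was -0.07 with quantile normalization and -0.12 without SSCiPSC replicate 2. Cdt1 was at -0.18 without SSCiPSC replicate 1. Cdc6 was at -0.02 ± 0.12 and changed sign or reached 0.00 under 4 of the settings tried.

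In the order of levels Gmnn and Cdt1 moved the most. Gmnn had the lowest mean of the 10 genes in SSC (13.3 FPKM) and stood at rank 6 in SSCiPSC (115.4 FPKM) and rank 7 in fiPSC (79.4 FPKM), while Cdt1 went from rank 7 in SSC (17.1 FPKM) to rank 10 in both iPSC groups. In SSC the means of Cdc6, Cdt1, Mcm7, Mcm10 and Gmnn followed each other with overlapping ranges. Cdt1 was lowest in both iPSC groups, at 61.5 FPKM in SSCiPSC, where it did not overlap Mcm7, and at 63.9 FPKM in fiPSC, where it overlapped Mcm10. Over the 9 libraries each gene was correlated with the mean of the other 9 genes (Pearson's r of log2(FPKM + 1)). The r ranged from 0.951 for Cdt1 to 0.997 for Mcm3 and Mcm6, a description in which the gap between SSC and iPSC sets most of the value.

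Other genes of replication were examined in 11 lists with 88 genes in all, of which 75 had a locus of their own and were tested, 11 had a locus shared with a neighbour or could not be assigned, and 2 (Mcidas and Gmnc) had no locus. In SSCiPSC 62 of the 75 were higher than in SSC (82.7%), 1 was lower and 12 did not pass. In fiPSC 63 were higher (84.0%), 1 was lower and 11 did not pass. Higher calls were made for 26.2% and 28.0% of all loci, and for 34.5% and 35.8% of those named for a single gene. The median log2 fold change of the 75 genes was 1.55 in SSCiPSC and 1.51 in fiPSC, against 2.13 and 2.04 for the licensing genes. By list, the median was higher than that for proliferation markers (2.46 and 2.29) and slightly higher for deoxynucleotide supply (2.15 and 2.12). It was lower in each other list with a tested gene. Between fiPSC and SSCiPSC 0 of 75 passed, against 0.0678% of all loci.

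Partners of loading rose in part. Of 8 genes of the origin recognition complex and its partners, 6 were higher in both iPSC groups. Orc1, the large subunit that binds CDC6, went from 11.0, 15.6 and 12.1 FPKM in SSC to 46.5, 52.1 and 44.5 in SSCiPSC (log2 fold change 1.82 ± 0.17), Orc6 rose by 1.21 ± 0.12 and Orc5 by 2.37 ± 0.16. Orc4 and Mcmbp did not pass. Mcmbp, whose product binds MCM subunits outside of chromatin, was at 53.7, 63.5 and 55.1 FPKM in SSC and at 62.3, 75.0 and 66.1 in SSCiPSC (0.24 ± 0.13, adjusted p = 0.191, limma), ranges that overlapped, in contrast to the subunits themselves. Its sign depended on the scaling, as Mcmbp was at -0.44 with quantile normalization (adjusted p = 0.0178, limma) and at 0.47 with median-ratio scaling (adjusted p = 0.0493, limma). Of the MCM paralogues, which act in recombination and meiosis, Mcm8 was higher in both iPSC groups (1.23 ± 0.25 and 1.19 ± 0.21). Mcm9 was at 0.53 ± 0.22 in SSCiPSC and 0.27 ± 0.19 in fiPSC without passing (adjusted p = 0.0873 and 0.276, limma). In SSCiPSC, however, Mcm9 passed with median-ratio scaling (0.74, adjusted p = 0.0314, limma) and with all 9 libraries in the fit (0.53, adjusted p = 0.0330, limma). Mcmdc2 did not pass.

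Genes that turn the loaded ring into a moving fork rose in 11 of 12 cases in both iPSC groups, all but Recql4. Cdc45, part of the active helicase, was higher by 1.30 ± 0.24 in SSCiPSC, Gins2, of the GINS complex, by 1.52 ± 0.18, and Ticrr, which brings in CDC45, by 1.98 ± 0.29. The kinase that fires origins consists of CDC7 and its activator DBF4. Dbf4 went from 28.7, 37.3 and 38.1 FPKM in SSC to 128.3, 141.9 and 143.8 in SSCiPSC (1.97 ± 0.15), while Cdc7 went from 15.8, 21.8 and 19.1 to 42.2, 25.7 and 33.6 (0.79 ± 0.22, adjusted p = 0.0242, limma) and did not pass under 6 of the settings tried, the omission of SSC replicate 1 (adjusted p = 0.0685, limma), SSCiPSC replicate 1 (0.0744) or SSCiPSC replicate 3 (0.0835) among them. Topbp1, a scaffold of origin firing, rose by 1.34 ± 0.13. Of the 4 checkpoint and fork protection genes tested, Timeless (2.14 ± 0.19) and its partner Tipin (2.20 ± 0.18) were higher, and Clspn and Atr did not pass.

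Of the genes that destroy CDT1 or control the destruction of geminin, 6 of 7 were higher in both groups and Cul4a was not. Dtl, the subunit that brings CDT1 to the CUL4 ligase in S phase, rose by 2.04 ± 0.19 in SSCiPSC, and Cul4b by 1.17 ± 0.16. Fbxo5 encodes EMI1, an inhibitor of the ligase that degrades geminin. It went from 7.25, 7.59 and 8.60 FPKM in SSC to 99.8, 97.1 and 88.2 in SSCiPSC and 84.8, 84.7 and 82.1 in fiPSC, without overlap (3.45 ± 0.13 and 3.27 ± 0.11). This rise was larger than that of Gmnn (3.05 and 2.52), a difference that was not tested.

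Polymerases and their helpers followed. Of 10 polymerase and primase genes 8 were higher in both groups, all but Pole and Pold4, among them Prim1 (2.09 ± 0.27 in SSCiPSC) and Pola2 (2.34 ± 0.21), which make the primers. Pole, the catalytic subunit of the leading strand polymerase, did not pass (0.38 ± 0.20 in SSCiPSC, adjusted p = 0.157, and 0.25 ± 0.17 in fiPSC, adjusted p = 0.268, limma) and was at -0.02 and -0.05 with quantile normalization. Of the clamp loader, RPA and lagging strand genes 9 of 9 were higher, with Rpa1 at 1.91 ± 0.20 and Lig1 at 1.92 ± 0.16. Pcna, the sliding clamp to which CDT1 is bound when it is destroyed, shares its locus with Tmem230. This locus was at 51.4, 57.6 and 51.7 FPKM in SSC, at 330.6, 312.6 and 266.4 in SSCiPSC and at 249.2, 256.2 and 262.1 in fiPSC.

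The E2F factors did not move as a block. In SSCiPSC 5 of 7 were higher, E2f6 was lower and E2f7 did not pass, and in fiPSC 6 were higher and E2f6 was lower. E2f1, an activator of licensing genes, was at 10.1, 15.2 and 14.7 FPKM in SSC and at 25.6, 25.8 and 21.6 in SSCiPSC, a modest rise of 0.84 ± 0.20 (adjusted p = 0.0130, limma) that did not pass without SSCiPSC replicate 1 or 2 (adjusted p = 0.0510 and 0.0523). In fiPSC it rose by 0.75 ± 0.19 (adjusted p = 0.0155, limma), which did not pass without fiPSC replicate 1 or 2 (adjusted p = 0.0689 and 0.0620). E2f4, known mostly as a repressor in resting cells, rose by 2.16 ± 0.23 and 2.18 ± 0.12. E2f6, a repressor that recruits Polycomb proteins, went from 28.7, 36.6 and 36.6 FPKM in SSC to 8.87, 9.41 and 11.8 in SSCiPSC and 10.2, 9.56 and 9.54 in fiPSC (-1.66 ± 0.18 and -1.69 ± 0.14).

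Deoxynucleotide supply held the gene with the largest change among the 75 replication genes tested. Rrm2, the regulated subunit of ribonucleotide reductase, was at 2.17, 4.23 and 4.18 FPKM in SSC, at 126.8, 125.8 and 146.4 in SSCiPSC and at 122.9, 130.1 and 119.7 in fiPSC (4.92 ± 0.23 and 4.83 ± 0.22). Its partner Rrm1 rose far less, by 1.15 ± 0.17 and 1.08 ± 0.15, and not past the threshold with quantile normalization. Dut, which removes dUTP, rose by 2.63 ± 0.18, and Dck was the single gene of 7 that did not pass. All 8 proliferation markers were higher in both groups, from Mki67, the antigen Ki-67 (48.3, 57.8 and 53.9 FPKM in SSC, 109.8, 102.7 and 125.9 in SSCiPSC, 1.06 ± 0.14), through Ccna2 (2.13 ± 0.19) and Top2a (2.58 ± 0.16) to Cdk1 (3.32 ± 0.18). Mki67 had the smallest rise of the 8 and did not pass with quantile normalization (0.32 and 0.30).

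**Figure D5:**
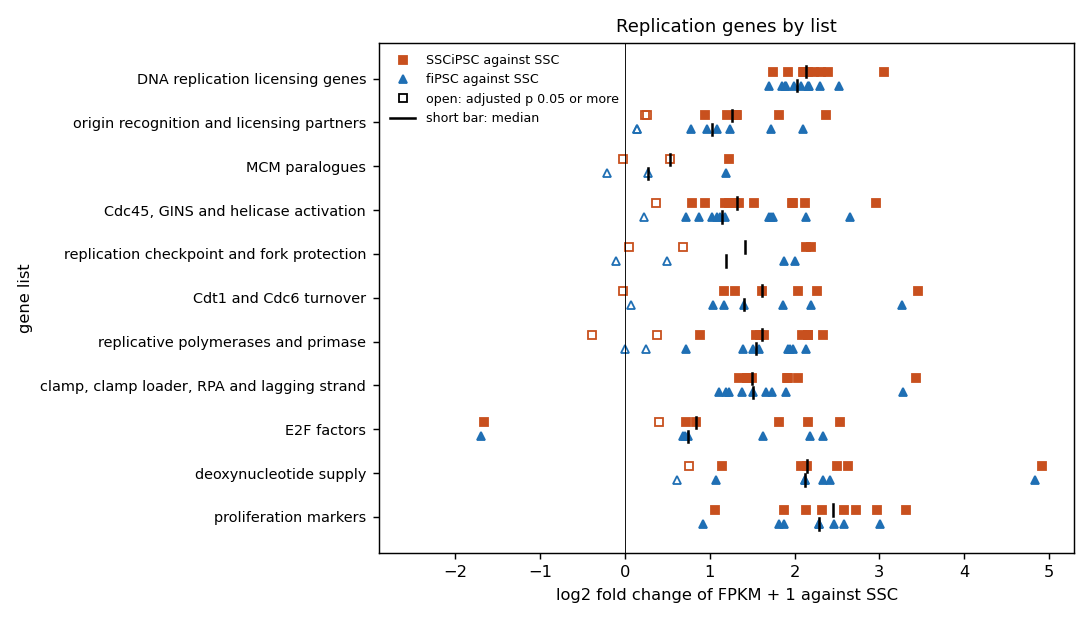
Log2 fold change of FPKM + 1 against SSC for the licensing genes and the tested genes of 10 further replication lists, with squares for SSCiPSC, triangles for fiPSC, open symbols where the adjusted p was 0.05 or more and short bars at the median. Licensing genes lie between 1.70 and 3.05, Rrm2 is farthest to the right, and E2f6 is the single gene lower at an adjusted p below 0.05.

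Among 7593 genes with a mean of at least 5 FPKM and a locus of their own, those most like the mean profile of Mcm2 to Mcm7 over the 9 libraries were AU018091 (Pearson's r 0.9988), Uri1, Ttf2, Dut and Msh6 (0.9984). Likeness of this degree was common, as 279 of them (3.67%) reached 0.99, and it mostly records the gap between SSC and iPSC. Msh6, of mismatch repair, was at 41.6, 48.7 and 38.2 FPKM in SSC, at 360.5, 448.6 and 389.4 in SSCiPSC and at 327.8, 310.2 and 352.0 in fiPSC.

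Cell type markers moved with every comparison to SSC. Germ line markers summed to 536.0, 656.2 and 419.1 FPKM over 13 of 14 genes in SSC and to 164.8 to 296.2 in iPSC, led by Dazl (193.7, 262.8 and 173.7 FPKM in SSC, 15.3 to 42.3 in iPSC) and Sall4. Of the 13, 9 were lower in SSCiPSC and 8 in fiPSC than in SSC, against 24.1% and 23.7% of all loci tested. A further 3 were higher in both, against 26.2% and 28.0% of loci. Sall4, which pluripotent cells also express, was among the higher ones, at 45.9, 39.7 and 25.9 FPKM in SSC and 59.1 to 150.5 in iPSC. Gfra1, the gene of the sorting marker, was at 37.7, 34.1 and 23.9 FPKM in SSC and at most 0.171 in iPSC. Sertoli cell markers summed to 1185, 1196 and 940.0 FPKM over 8 of 11 genes in SSC against 9.27 to 15.4 in iPSC. They were led by Clu (712.7, 645.2 and 538.0 FPKM in SSC) and Cst12 (197.5, 271.3 and 206.5 FPKM, listed at 0 in all iPSC), with Sox9 at 30.5, 28.0 and 32.1 FPKM in SSC. Clu made up most of this sum, and sums of different lists do not measure the amount of each cell type. By these lists the Gfra1-sorted libraries held RNA of somatic cells of the testis beside that of germ cells. According to the methods of the study, somatic cells had been left to attach to gelatin before the floating cells were sorted. Leydig markers (3 of 8 genes, led by Cyp11a1 and Cyp17a1) summed to 159.8, 123.7 and 236.5 FPKM in SSC and to no more than 0.358 in iPSC. Peritubular myoid markers (4 of 6, led by Acta2 and Des) summed to 85.8, 76.9 and 70.2 FPKM in SSC and to 8.98 to 12.5 in iPSC. In both iPSC groups 2 of the 4 were lower, Acta2 among them, against 24.1% and 23.7% of all loci. Des did not pass, at 2.89, 1.94 and 4.62 FPKM in SSC and 3.59 to 8.86 in iPSC.

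Markers of blood cells differed between the SSC libraries. Macrophage markers (6 of 8, led by Cd68 and C1qa) were at 55.3, 19.6 and 158.5 FPKM in SSC replicates 1, 2 and 3 and at 8.93 to 14.4 in iPSC. Of the 6, 5 were lower in SSCiPSC and 4 in fiPSC, against 24.1% and 23.7% of all loci tested. Cd68 did not pass, at 7.53, 3.51 and 15.8 FPKM in SSC and 7.65 to 13.7 in iPSC, and made up most of the sum there, whereas C1qa was at 15.8, 4.61 and 51.1 FPKM in SSC and 0.142 to 1.89 in iPSC. Ptprc, of the blood markers, was at 0.581, 0.666 and 9.28 FPKM. The shared beta globin locus was at 1413, 358.2 and 3192 FPKM in the same order and at or near 0 in iPSC. Replicate 2, with the lowest macrophage marker sum and globin value, was also the deepest of the 3. Endothelial markers (6 of 6, led by Pecam1 and Cdh5) had sums that overlapped, at 117.1, 56.8 and 96.8 FPKM in SSC and 83.4 to 127.1 in iPSC. However, 4 of the 6 were lower in both iPSC groups, against 24.1% and 23.7% of all loci, and Pecam1 was higher. SSC and iPSC did not overlap for any of the 6, as for 59.8% of loci in SSCiPSC and 61.6% in fiPSC, in either direction. Cdh5 went from 22.2, 12.6 and 27.2 FPKM in SSC to at most 0.0458 in iPSC. Of the fibroblast or feeder markers (10 of 10, led by Fn1 and Col3a1) 6 were lower in both iPSC groups, against 24.1% and 23.7% of all loci, and Fn1 was higher. Their sums, 132.9, 124.9 and 334.0 FPKM in SSC and 149.8 to 240.6 in iPSC, overlapped. Col3a1 was at 32.6, 27.4 and 95.9 FPKM in SSC and at 2.93 to 14.1 in iPSC. Pluripotency markers (9 of 12, led by Pou5f1 and Nanog) went from 73.6, 70.8 and 69.7 FPKM in SSC to 2205, 2389 and 2096 in SSCiPSC and 1806, 1772 and 1977 in fiPSC, with Nanog listed at 0 in all SSC. The part of these cell types in the levels of the licensing genes was not tested. In such bulk samples fewer cycling cells and less RNA per cell cannot be told apart.

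Both calls of 10 of 10 genes against SSC held in each alternative of scaling, filter, threshold and samples, with each library left out in turn. Their size depended on scaling, since quantile normalization lowered the median log2 fold change to 1.38 in SSCiPSC and 1.55 in fiPSC, with the lowest at 1.16 and 1.11, whereas median-ratio scaling raised it to 2.37 and 2.27. With quantile normalization the fold moved by over 1.5 times for 5 of the 10 licensing genes in SSCiPSC (Mcm2 to Mcm6) and 4 in fiPSC (the same without Mcm4), and for 15 and 8 of 31 further replication genes. Among these were Orc6 (0.50 in SSCiPSC and 0.63 in fiPSC), Cul4b (0.44 and 0.43), Rpa1 (1.12 and 1.08) and Top2a (1.58 and 1.45), and Topbp1 in SSCiPSC (0.72), which all still passed. Dut (1.78 and 1.67) and Ccna2 (1.36 and 1.24) moved and still passed too. So did Dbf4 (1.31), Lig1 (1.30), Prim1 (1.39), Tipin (1.51) and Cdk1 (2.68) in SSCiPSC.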

How the data were processed

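Libraries were made with a stranded mRNA kit, before which rRNA was depleted per the labels, a step that the methods of the study do not give. Paired-end reads were aligned with TopHat and loci were built with Cufflinks, which the authors ran to obtain the deposited FPKM (RPKM in the header of the table), with a value for each locus in each library. The submitters' processing notes name Trimmomatic 0.32, TopHat2 2.0.9, Bowtie2 2.1.0, Cufflinks 2.2.1, Cuffdiff and the build mm9. The coordinates of the table, however, match GRCm38, since 92.8% of the loci of a strand overlapped a protein-coding gene of that strand in its annotation, against 38.3% and 37.9% after a shift by 1000000 bp up or down. Of 54914 loci, 1 with a blank value was left out. Names of genes in the table and a deposited summary of the authors' comparisons were not used.

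A gene was given a locus by strand and position. Groups were compared pairwise on log2(FPKM + 1) by the moderated test of limma 3.58.1 in R 4.3.3 (lmFit, eBayes with a trend). A locus entered a test when 3 or more of its 6 libraries reached 1 FPKM, and was called at a Benjamini-Hochberg adjusted p, over all loci tested, below 0.05. FPKM are not counts, so no count model was used. The fold change understates that of low genes. Single genes and the ratio of Gmnn to Cdt1 were also compared with exact two-sided permutation tests, in which 3 against 3 libraries cannot give a p below 0.1. Each licensing gene was at p = 0.1 in this permutation test in both comparisons with SSC. The steps were tested on simulated data. Depth was estimated from unspliced loci of 600 to 6000 bp, and intervals from it would cover counting error only. Python 3.11.15, numpy 2.4.6, pandas 2.3.3, scipy 1.17.1 and matplotlib 3.10.9 were used.

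The members and the gene lists were chosen with earlier results of these data known. The text names all members, a fixed set of pathway genes (Orc1, Orc6, Mcmbp, Mcm8, Mcm9, Cdc45, Gins2, Cdc7, Dbf4, Ticrr, Dtl, Pcna, Pole, E2f1, Rrm2, Mki67 and Ccna2), the 2 genes of each list with the highest mean and the 5 most like the mean Mcm2 to Mcm7 profile. Orc4, Mcmdc2, Recql4, Clspn, Atr, Cul4a, Pold4, E2f6, E2f7, Dck, Gfra1 and Sox9 were named after their values were seen. Scaling, filter, pseudocount, variance model, threshold, samples, replicate block and locus choice were varied. A marker of the blood list is not reported here.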

Additional observations from a re-analysis of the deposited data

How the results depend on the processing

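The members past the threshold stayed at 10 of 10, 10 of 10 and 0 of 10 (SSCiPSC against SSC, fiPSC against SSC, fiPSC against SSCiPSC) with no filter or a minimum mean of 5 FPKM, a pseudocount of 0.1, median-ratio or quantile scaling, no trend in eBayes, summed loci of a gene, the 9 libraries fitted together, a threshold of 0.01 or a minimum change of 1.5 times, and each library left out, and at 9 of 9, 9 of 9 and 0 of 9 without Mcm6, an alternative chosen after seeing the data. The median of all loci moved under median-ratio scaling from 0.11 to 0.29 and from 0.17 to 0.35. Loci past the threshold fell to 10070, 10528 and 10 with a mean of at least 5 FPKM, where fewer loci were tested. Between fiPSC and SSCiPSC 23 loci passed, against 11 with all 9 libraries, 9 at an adjusted p below 0.01 and from 6 to 20 with 1 library left out, without regard to which loci these were. For the other alternatives the cause was not tested.

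The replicate numbers did not pair the libraries: same-numbered libraries had correlations of deviations from -0.236 to 0.021. Differently numbered libraries of fiPSC and SSCiPSC ran from -0.134 to 0.196, the highest for fiPSC replicate 3 with SSCiPSC replicate 2. Another pairing of the iPSC libraries was not tested. With the replicate number as a block the members stayed at 10, 10 and 0, loci between fiPSC and SSCiPSC fell to 6, and Cdc7 was at an adjusted p of 0.0622 (limma).

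Signs changed for Mcmbp (-0.44 and -0.41 in SSCiPSC and fiPSC) and Pole (-0.02 and -0.05) with quantile normalization, for Cdt1 between fiPSC and SSCiPSC (-0.18) without SSCiPSC replicate 1 (from -0.18 to 0.24 with each library left out), and for Cdc6 between fiPSC and SSCiPSC with quantile normalization (0.09), summed loci (0.00), without SSCiPSC replicate 2 (0.08) or fiPSC replicate 2 (0.01), from -0.09 to 0.08 over the libraries left out. The log2 ratio of Gmnn to Cdt1 in fiPSC was 0.38 with summed loci.

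With Mcm6 left out of the sum, shares in SSC, SSCiPSC and fiPSC were 26.3%, 25.8% and 24.3% for Mcm2, 25.9%, 25.4% and 24.0% for Mcm3, 15.7%, 13.6% and 12.7% for Mcm4, 24.3%, 26.1% and 29.9% for Mcm5 and 7.89%, 9.18% and 9.06% for Mcm7, as fewer genes share the sum.

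The shallow SSC libraries limit precision for genes low there, Gmnn and Rrm2 among them.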
